A study of Homo sapiens with 4 samples.

Results

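The histone genes were examined in SAS cells in which the gene of HAI-1 had been silenced. Members were chosen by gene symbol, as every probe set whose symbol begins with HIST1H, HIST2H, HIST3H or HIST4H (68 probe sets, the replication-dependent histones) or is H1F, H2AF or H3F followed by letters or digits (37 probe sets, the replacement histones). They amount to 105 of the 54675 probe sets of the array and carry 74 gene symbols. SAS is an established line of human oral squamous cell carcinoma, and HAI-1, encoded by SPINT1, is a cell-surface inhibitor of serine proteases of the trypsin kind. The knockdown group holds 2 arrays of cells infected with the retroviral vector pSINsi-hU6 carrying a short hairpin RNA against SPINT1, and the control group holds 2 arrays of cells infected with the same vector carrying a scrambled hairpin. Both groups therefore share the cell line, the vector and the infection, and no uninfected cells were analysed here. A single hairpin was used against SPINT1, and the labels do not say whether the 2 arrays of a group came from separate infections or cultures, so the spread behind every p-value is that between these arrays and may be technical.

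Histones are the proteins around which DNA is wound, with pairs of H2A, H2B, H3 and H4 in each nucleosome and H1 on the linker. The replication-dependent genes lie in clusters, are made in S phase as DNA is copied, and their messengers end in a stem-loop, bound by SLBP, in place of a poly(A) tail. The replacement genes stand alone, carry introns or poly(A) tails in most cases, and supply variants such as H3.3, H2A.Z and macroH2A throughout the cell cycle. The one-cycle labelling used for these arrays primes from poly(A) tails in its standard form, so a replication-dependent messenger is measured through whatever polyadenylated copies it has or through other priming. In RNA pooled from many cells, a change in the share of cells in S phase and a change in RNA per cell cannot be told apart.

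Regulatory DNA in front of some of the members that moved is shown first. The largest group among the members that rose, the H2B genes, is known for a shared promoter element, the octamer ATTTGCAT bound by OCT1. The DNA in front of H2AC13 (HIST1H2AI), H2AC17 (HIST1H2AM) and H4C16 (HIST4H4), named by probe sets that were also higher, is not shown. The sequences are the 150 bases before the annotated start in RefSeq (build GRCh38.p14), read 5′ to 3′ on the gene's strand, and capitals mark matches on either strand to the octamer (ATTTGCAT), to the CCAAT box (CCAAT) and to the TATA box (TATAAA). No match overlaps another in these windows. The first set holds the 5 H2B genes whose probe sets were higher in knockdown cells.
H2BC5 (chr6:26157971-26158120, plus strand): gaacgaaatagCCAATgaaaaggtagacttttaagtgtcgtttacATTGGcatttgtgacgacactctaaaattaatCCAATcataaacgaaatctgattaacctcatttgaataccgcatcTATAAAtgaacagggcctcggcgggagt
H2BC6 (chr6:26183611-26183760, plus strand): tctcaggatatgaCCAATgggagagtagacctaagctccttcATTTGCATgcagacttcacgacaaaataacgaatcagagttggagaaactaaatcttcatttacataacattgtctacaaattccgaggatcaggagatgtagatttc
H2BC8 (chr6:26216689-26216838, minus strand): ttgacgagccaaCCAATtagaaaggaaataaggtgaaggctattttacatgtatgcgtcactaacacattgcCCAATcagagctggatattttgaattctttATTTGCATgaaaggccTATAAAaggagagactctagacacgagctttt
H2BC9 (chr6:26251464-26251613, plus strand): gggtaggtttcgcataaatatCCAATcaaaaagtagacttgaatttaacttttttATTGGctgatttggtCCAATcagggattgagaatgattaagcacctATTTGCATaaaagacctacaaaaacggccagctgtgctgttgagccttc
H2BC10 (chr6:26272781-26272930, plus strand): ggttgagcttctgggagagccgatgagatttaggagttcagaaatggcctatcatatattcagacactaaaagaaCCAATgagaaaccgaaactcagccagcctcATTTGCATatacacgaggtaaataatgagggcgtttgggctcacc
The second set holds H4C11 and H4C12, 2 genes of the H4 probe sets that were higher, whose windows are equal at 148 of 150 letters.
H4C11 (chr6:27823942-27824091, plus strand): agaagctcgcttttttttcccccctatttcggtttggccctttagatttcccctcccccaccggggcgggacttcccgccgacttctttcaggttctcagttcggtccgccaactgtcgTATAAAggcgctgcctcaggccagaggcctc
H4C12 (chr6:27831561-27831710, minus strand): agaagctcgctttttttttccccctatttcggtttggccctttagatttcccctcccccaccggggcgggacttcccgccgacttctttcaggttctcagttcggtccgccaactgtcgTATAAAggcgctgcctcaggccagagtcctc
The third set holds H2AC25, H2AJ and H2AZ2, whose probe sets were lower in knockdown cells.
H2AC25 (chr1:228457874-228458023, minus strand): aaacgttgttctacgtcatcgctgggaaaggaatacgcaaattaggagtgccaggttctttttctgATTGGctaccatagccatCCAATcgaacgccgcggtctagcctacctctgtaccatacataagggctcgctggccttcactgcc
H2AJ (chr12:14774255-14774404, plus strand): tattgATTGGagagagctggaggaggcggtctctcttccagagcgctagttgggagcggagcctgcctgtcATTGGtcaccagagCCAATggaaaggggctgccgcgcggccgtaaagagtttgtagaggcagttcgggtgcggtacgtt
H2AZ2 (chr7:44848088-44848237, minus strand): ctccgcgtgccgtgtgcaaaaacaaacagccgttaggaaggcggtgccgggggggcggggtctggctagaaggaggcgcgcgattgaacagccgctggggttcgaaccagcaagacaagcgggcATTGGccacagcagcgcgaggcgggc

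The octamer stands in 4 of the 5 windows of H2B genes (H2BC6, H2BC8, H2BC9 and H2BC10). It stands in none of the other 5 shown, which hold no H2A gene that rose. In the same 150 bases it was found in 13 of the 16 replication-dependent H2B promoters (81.2%), 4 of 13 of H2A, 1 of 9 of H3, and none of 6 of H1 or of 11 of H4, against 0.985% of all 27305 promoters of the RefSeq table. The CCAAT box was found in 46 of 55 replication-dependent promoters (83.6%) against 24.4% of all promoters, and the exceptions lay in the H4 family, where 2 of 11 hold it. The TATA box was found in 30 of 55 (54.5%) against 7.05% of all promoters. Of the 14 replacement promoters, 1 holds the octamer, 9 the CCAAT box and 4 the TATA box. A match describes the letters and not the use of a site. Of the members' 75 current symbols, 69 were found in the table.

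On each array 45.6% to 48.1% of all probe sets were called present, and 4244 of the 27307 probe sets tested (15.5%) passed an adjusted p of 0.05 in limma, 1977 higher and 2267 lower in knockdown cells. The target SPINT1 had signals of 135 and 282 on the knockdown arrays, against 1451 and 1445 on the control arrays (log2 change −2.79, limma adjusted p = 4.2e-05). A second SPINT1 probe set, absent on every array, gave 203 and 263 in knockdown cells, against 222 and 282 in control cells (−0.11, adjusted p = 0.79). Of the epithelial and squamous markers, 12 of 12 were present on both knockdown arrays and 11 on both control arrays, with summed signals of 163721 and 191425 in knockdown cells and 171150 and 169983 in control cells. Of 7 leukocyte markers 3 were present on both knockdown arrays and 2 on both control arrays (CD14 and ITGB2 on all 4, PTPRC and CD3E on none), with summed signals of 1324 and 1249 in knockdown cells and 1218 and 985 in control cells. Of 6 endothelial markers 2 were present on both arrays of each group (CDH5 on all 4, VWF, KDR and TIE1 on none), with summed signals of 992 and 1363 in knockdown cells and 659 and 638 in control cells. Of 7 fibroblast markers 3 were present on both knockdown arrays and 1 on both control arrays (FBLN1 on all 4, COL3A1, DCN, PDGFRB and COL1A2 on none), with summed signals of 1064 and 1186 in knockdown cells and 847 and 781 in control cells. The part of these markers in any result was not tested. Signals are MAS5 intensities, tests used log2(signal + 16) so that changes of dim probe sets are understated, and only probe sets with a mean at or above the median of all (a signal of 55.4) were tested. With 2 arrays against 2, an exact permutation test cannot give a two-sided p under 0.333, so the p-values rest on limma's variance model.

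Replication-dependent histones as a class were seen more often in knockdown cells. The detection call was present for 31 and 25 of the 68 probe sets on the knockdown arrays and for 18 and 20 on the control arrays, while the replacement histones gave 29 and 28 present calls on the knockdown arrays and 27 and 29 on the control arrays. In all, 24 replication-dependent probe sets were present on both knockdown arrays and 14 on both control arrays, and 33 were present on none of the 4. The filter left 27 to be tested and 41 below it. Of the 27, 9 were higher in knockdown cells, 1 was lower and 17 did not pass, where 7.24% of all probe sets tested were higher and 8.3% were lower. At an unadjusted p under 0.05, 14 were higher and 2 lower, where 15.1% and 14.2% of all probe sets tested were higher and lower, and the unadjusted counts given further on are to be read against those shares. Their median log2 change was 0.56, against 0.04 over all probe sets tested. Without the filter the median over all 68 was 0.33, and 5 were higher and 0 lower in limma (14 and 2 at an unadjusted p under 0.05 over the 68), where 1.69% of all probe sets were higher and 2.36% lower. Adjusted p-values over the larger table are higher, and the filter favours members that passed it through the group where they are bright, so the count of 9 describes these probe sets and no wider set.

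**Figure D1:**
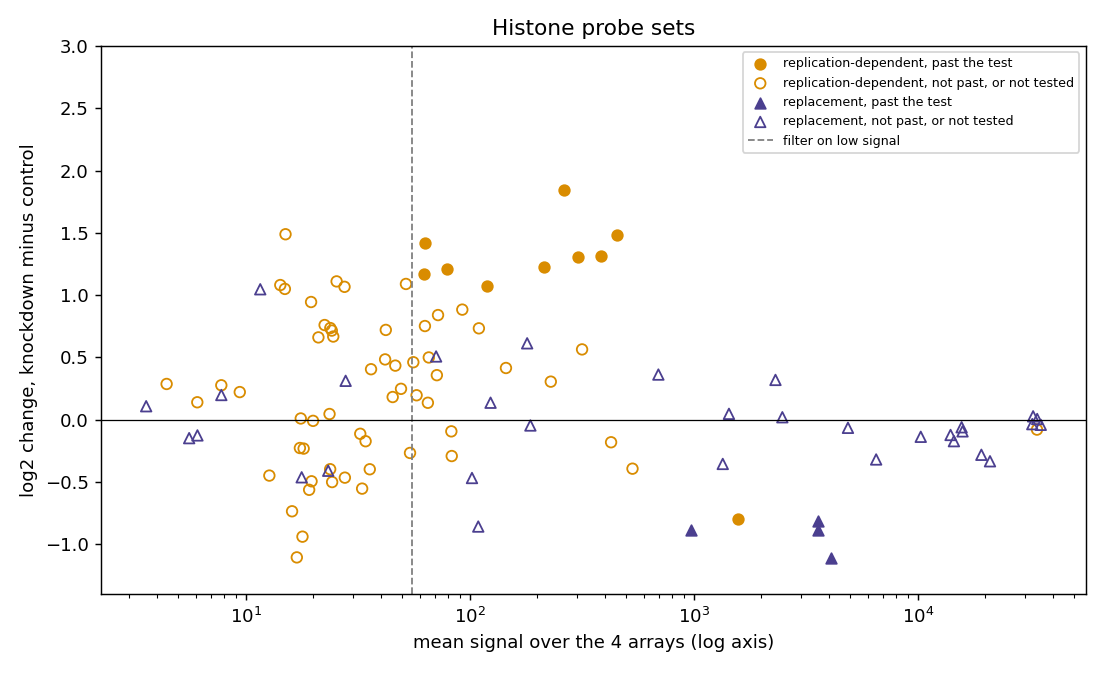
Each point is 1 histone probe set, with its mean signal over the 4 arrays on the x axis (log scale) and its log2 change, knockdown minus control, on the y axis. Circles are replication-dependent and triangles replacement histones, filled points passed an adjusted p of 0.05 in limma, and the dashed line is the filter at a signal of 55.4. The 9 replication-dependent probe sets that were higher lie at or above a log2 change of 1.07, at low to middle signals, and the 5 filled points below 0 lie at higher signals.

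The H2B family, whose proteins pair with H2A at the nucleosome's faces, held most of the rises. Of its 18 probe sets 8 were tested, 5 of these were higher and none was lower (6 and 0 at an unadjusted p under 0.05 in limma), and over all 18 the median log2 change was 0.87. Both knockdown arrays lay above both control arrays for 13 of the 18 and below them for 2, patterns seen in 25.7% and 20.8% of all probe sets. The brightest of the 5, HIST1H2BH (current symbol H2BC9; chromosome 6, 26359857 to 26360238, plus strand), had signals of 726 and 817 in knockdown cells, against 236 and 297 in control cells. It was 2.80-fold higher (log2 change 1.48, SE 0.17, limma adjusted p = 0.00021), and the gap between groups was wider than the spread within either. Coordinates of probe sets are those of the first deposited alignment listed for each. The genome build of these alignments is not given in the sources used here. The probe sets of HIST1H2BH and HIST1H2BI have 6 listed alignments each.

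HIST1H2BE (H2BC6) gave 474 and 500 in knockdown cells, against 167 and 211 in control cells, and rose by 1.30 on the log2 scale (SE 0.19, limma adjusted p = 0.00094). Its probe set has 8 listed alignments, on chromosome 21 as well as in the cluster. HIST1H2BD (H2BC5; chromosome 6, 26266352 to 26266848) gave 306 and 373 in knockdown cells, against 116 and 157 in control cells, and rose by 1.23 (SE 0.23, adjusted p = 0.0042). Its second probe set, which reaches further along the gene, gave 176 and 164 in knockdown cells, against 126 and 121 in control cells, a log2 change of 0.42 that did not pass (adjusted p = 0.29). The groups did not overlap for either probe set of this gene.

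The dimmer H2B members that passed did so less firmly. HIST1H2BI (H2BC10) gave 176 and 184 in knockdown cells, against 56.2 and 104 in control cells (log2 change 1.07, SE 0.30, limma adjusted p = 0.035), and the adjusted p was 0.079 without knockdown replicate 1, 0.095 without knockdown replicate 2 and 0.25 without control replicate 1. HIST1H2BG (H2BC8) gave 86.6 and 148 in knockdown cells, against 24.2 and 42.6 in control cells. It was called present only on the knockdown array with the lower signal, and absent on the other and on both control arrays. Its log2 change of 1.42 (SE 0.38, limma adjusted p = 0.027) therefore rests largely on signals called absent, and no fold is given. Without knockdown replicate 2 the log2 change was 1.08, and without control replicate 1 it was 1.15. The control mean of 33.4 lay below the filter's signal, so this probe set was tested through the knockdown arrays. With no filter its limma adjusted p was 0.15. A second HIST1H2BG probe set, below the filter, gave 75.0 and 91.7 in knockdown cells, against 12.5 and 59.9 in control cells. Both HIST1H2BG probe sets were higher on each knockdown array than on either control array.

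The H2B members tested that did not pass were HIST1H2BF, the second HIST1H2BD probe set and HIST2H2BE. HIST1H2BF (H2BC7) gave 329 and 459 in knockdown cells, against 222 and 299 in control cells, without overlap (log2 change 0.56, limma adjusted p = 0.11, and 0.038 without knockdown replicate 1). HIST2H2BE (H2BC21), the H2B gene of the cluster on chromosome 1, gave 95.9 and 55.6 in knockdown cells, against 95.6 and 91.5 in control cells (log2 change −0.29, adjusted p = 0.60). HIST1H2BA, the testis gene of the family, was absent on every array.

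**Figure D2:**
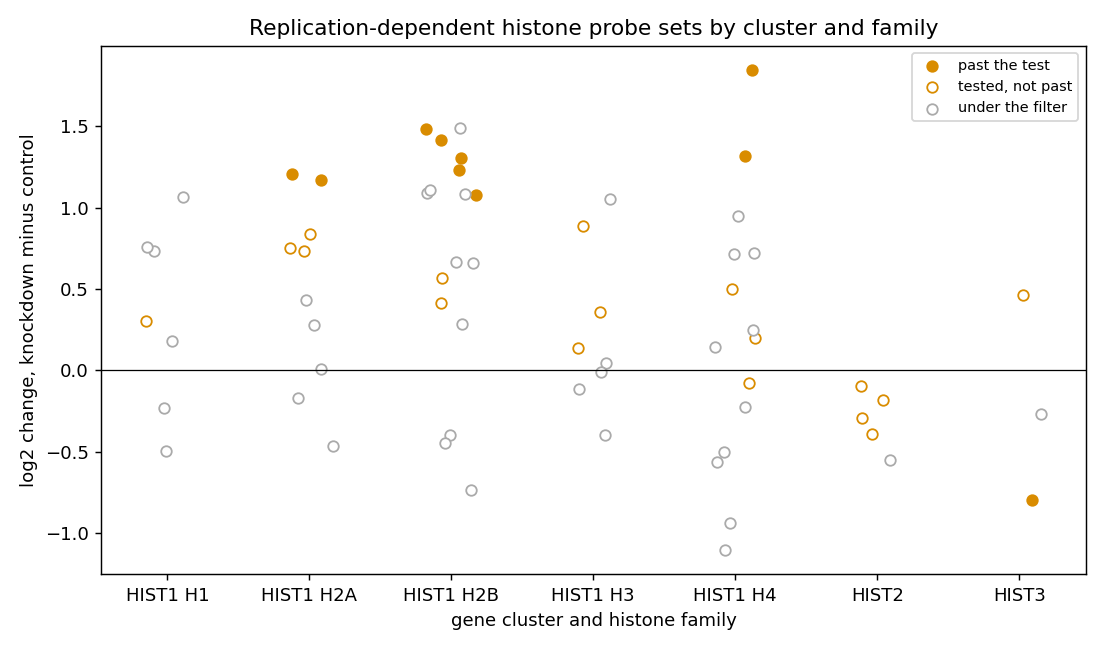
Each point is 1 replication-dependent probe set, grouped on the x axis by gene cluster and histone family, apart from the 3 that name genes of 2 families, with the log2 change, knockdown minus control, on the y axis. Filled points passed the test, open orange points were tested and did not pass, grey points lie under the filter, and points are spread sideways only to be seen. The filled points above 0 lie in HIST1 H2A, H2B and H4 at changes of 1.07 to 1.84, all 5 HIST2 points lie below 0, and the 1 filled point below 0 is HIST3H2A.

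Among the H4 genes, most of which encode the same core protein, 2 of 6 probe sets tested were higher and none was lower (2 and 0 at an unadjusted p under 0.05 in limma). The probe set shared by HIST1H4J, HIST1H4K and HIST4H4 (H4C11, H4C12 and H4C16) gave 453 and 582 in knockdown cells, against 98.1 and 175 in control cells. It was present on both knockdown arrays and was absent on 1 control array and marginal on the other, so it was at least 3.59-fold higher (log2 change 1.84, SE 0.26, limma adjusted p = 0.00070), the largest change among the histone probe sets tested. A second probe set, named for HIST1H4J alone (chromosome 6, 27899848 to 27900237, plus strand), gave 589 and 643 in knockdown cells, against 207 and 272 in control cells, and was absent on both control arrays. It was at least 2.49-fold higher (log2 change 1.32, SE 0.18, adjusted p = 0.00068). The 2 probe sets share an alignment, so they are not separate measurements of separate genes.

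The brightest replication-dependent member, HIST1H4C (H4C3), did not follow them. It gave 28822 and 38087 in knockdown cells, against 33854 and 36166 in control cells, with overlapping groups and a log2 change of −0.08 (limma adjusted p = 0.77; without knockdown replicate 2, −0.28 with adjusted p = 0.016). The other 3 H4 probe sets tested, of HIST1H4B, HIST1H4D and the pair HIST2H4A and HIST2H4B, had log2 changes of 0.50, 0.20 and −0.09, and none passed. Of the 10 H4 probe sets below the filter, 2 were called present on each knockdown array but on neither of the control arrays. HIST1H4G (H4C7) gave 30.7 and 103 in knockdown cells, against 21.9 and 38.2 in control cells, and a HIST1H4B probe set gave 47.5 and 63.7 in knockdown cells, against 30.5 and 61.2 in control cells. The groups overlapped for both, and neither was tested. The symbol HIST1H4B (H4C2) stands on 6 probe sets aligned at 6 separate places, so it does not name 1 gene here.

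The H2A family gave 2 rises and 1 fall among 8 probe sets tested (5 and 2 at an unadjusted p under 0.05 in limma). Of all probe sets tested, 7.24% were higher and 8.3% lower. HIST1H2AI (H2AC13; chromosome 6, 27883955 to 27884491) gave 124 and 133 in knockdown cells, against 49.3 and 43.8 in control cells (log2 change 1.21, SE 0.31, limma adjusted p = 0.021). It was absent on all 4 arrays, so no fold is given, and the adjusted p was 0.057 to 0.087 when any 1 array was left out. HIST1H2AM (H2AC17; chromosome 6, 27968196 to 27968942) gave 84.8 and 121 in knockdown cells, against 31.3 and 41.4 in control cells. It was present on both arrays of knockdown cells and absent on both of control cells, at least 2.25-fold higher (log2 change 1.17, SE 0.35, adjusted p = 0.044), with an adjusted p of 0.064 to 0.22 when any 1 array was left out. Both therefore passed only with all 4 arrays, although in neither did the groups overlap. Their control means, 46.6 and 36.3, lay below the filter's signal, so they were tested through the knockdown arrays, and with no filter the adjusted p was 0.12 for HIST1H2AI and 0.20 for HIST1H2AM.

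HIST3H2A (H2AC25), an H2A gene of the small HIST3 cluster, was the 1 replication-dependent member that fell. Its signals were 1413 and 1014 in knockdown cells, against 1916 and 2277 in control cells (log2 change −0.80, SE 0.16, limma adjusted p = 0.0058), 1.74-fold lower without overlap (chromosome 1, 226711304 to 226712183, minus strand). The adjusted p was 0.053 with no filter and 0.10 without the variance trend. A second probe set aligned to the plus strand of the same place, below the filter, gave 53.8 and 42.5 in knockdown cells, against 49.2 and 74.5 in control cells. The 3 probe sets of the nearly identical genes HIST2H2AA3 and HIST2H2AA4 (H2AC18 and H2AC19) were also on the negative side without passing. The brighter gave 535 and 400 in knockdown cells, against 564 and 665 in control cells (log2 change −0.39, limma adjusted p = 0.16, and 0.045 without knockdown replicate 1), the next 421 and 380 in knockdown cells, against 466 and 446 in control cells (−0.18, adjusted p = 0.50), and the last lay below the filter. A further 3 H2A members of the HIST1 cluster had log2 changes of 0.73 (HIST1H2AC), 0.75 (HIST1H2AB) and 0.84 (HIST1H2AJ), with no overlap between groups and adjusted p-values of 0.094, 0.16 and 0.14. HIST1H2AB and HIST1H2AJ were absent on all 4 arrays, and HIST1H2AJ aligns within the place of HIST1H2AI.

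In the H3 and H1 families no replication-dependent member passed, and at an unadjusted p under 0.05 in limma 1 H3 probe set was higher. The 4 H3 probe sets tested had log2 changes of 0.14 to 0.88, led by HIST1H3F (H3C7) with 150 and 115 in knockdown cells, against 49.7 and 81.1 in control cells (limma adjusted p = 0.089). The 1 linker histone tested, HIST1H1C (H1-2), gave 333 and 198 in knockdown cells, against 146 and 285 in control cells, with groups that overlapped (log2 change 0.31, adjusted p = 0.56). The other 6 H1 probe sets lay below the filter.

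**Figure D3:**
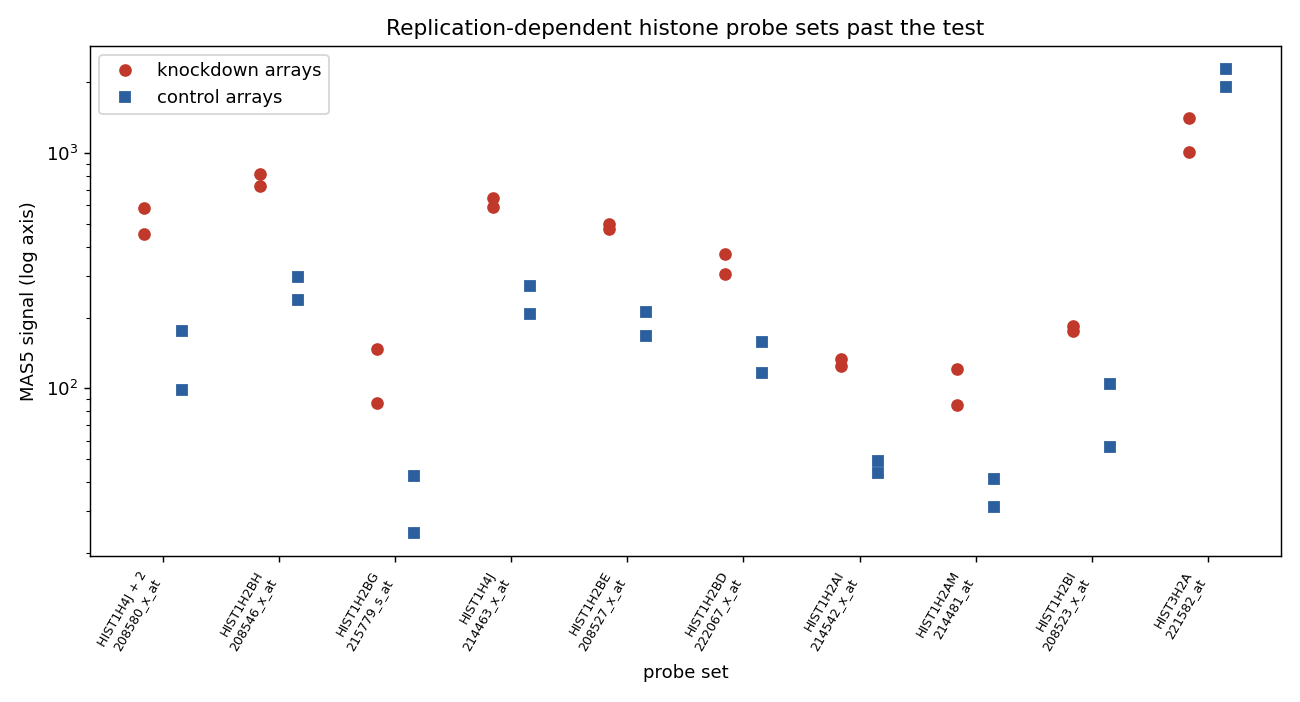
Points are MAS5 signals (y axis, log scale) of the 2 knockdown arrays (red circles) and the 2 control arrays (blue squares) for the 10 replication-dependent probe sets past the test (x axis; HIST1H4J + 2 is the probe set shared with HIST1H4K and HIST4H4). Both knockdown points lie above both control points for the first 9, and below them for HIST3H2A, where knockdown cells gave 1413 and 1014 and control cells 1916 and 2277.

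The 41 replication-dependent probe sets below the filter were dim on average, though some exceeded its signal on 1 array, such as HIST1H1A with 7.09 and 98.4 in knockdown cells, against 7.26 and 24.9 in control cells. Of these, 24 had a positive and 17 a negative log2 change, between −1.10 (HIST1H4F) and 1.49 (HIST1H2BN), and 13 were called present on at least 1 array. The 3 probe sets that name genes of 2 families, H2A or H2B with H3, were among them, with log2 changes of 0.22 to 0.48. HIST1H2BN (H2BC15) gave 33.3 and 38.8 in knockdown cells, against 2.46 and 2.58 in control cells, but was absent on all 4. At such signals the detection call does not separate a messenger from background, and no fold is given.

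By the first symbol of each probe set, the 9 rises stood under HIST1, although the shared H4 probe set also names HIST4H4 and that of HIST1H2BE also aligns to chromosome 21. HIST1, on chromosome 6, held 21 probe sets tested, of which 9 were higher and none lower (14 and 0 at an unadjusted p under 0.05 in limma). HIST2, on chromosome 1, held 4 tested with none past the threshold (1 lower unadjusted), and all 5 of its probe sets had negative changes, from −0.55 to −0.09. HIST3 held 2 tested, of which 1 was lower. The difference between clusters was not tested. Genes of other kinds between the first and last HIST1 member (25834997 to 27969735) gave 0 higher and 2 lower of 49 probe sets tested (2 and 5 unadjusted), with a median log2 change of −0.11. In the HIST2 stretch (148070844 to 148124856), 2 of 4 such probe sets were lower and none was higher (3 and 0 unadjusted), and around HIST3H2A, within 1000000 bases on each side, 2 were higher and 2 lower of 35.

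How separate the 9 rises are is limited by the sequence likeness of the genes. Of the 9, 7 have the suffix _x_at, with which the array's maker marks probes that may also bind other transcripts, or name several genes. Such probe sets gave 7 higher of 13 tested, and the remaining 14 gave 2 higher (HIST1H2BG and HIST1H2AM) and 1 lower (HIST3H2A). Those 2 rises were tested through the knockdown arrays, as their control means of 33.4 and 36.3 lay below the filter's signal. With no filter their limma adjusted p-values were 0.15 and 0.20. By the deposited alignments, HIST1H2BH shares a place with 4 of the others that rose, HIST1H2BI with 3, HIST1H2BE and HIST1H2BD with 2 each and HIST1H2BG with 1. HIST1H2AI and HIST1H2AM share none. The 5 H2B rises can therefore hold signal from fewer than 5 genes.

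Some replication-dependent genes are known to make polyadenylated transcripts as well, among them HIST1H1C, HIST1H2AC, HIST1H2BD, HIST2H2BE, HIST2H2AA3 and HIST3H2A. Of 16 probe sets on that list 9 were tested, and 2 were higher and 1 lower (3 and 2 at an unadjusted p under 0.05 in limma), with a median log2 change of 0.31. The remaining 52 replication-dependent probe sets gave 18 tested, 7 higher and none lower (11 and 0 at an unadjusted p under 0.05 in limma), with a median of 0.80. The 2 higher on the list, of HIST1H2BD and of HIST1H4J, HIST1H4K or HIST4H4, share alignments with probe sets that rose outside it, so the groups are not separate measurements, and their difference was not tested.

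Replacement histones as a class passed at a share near that of all probe sets tested. Of 37 probe sets 29 were tested, 1 was higher, 4 were lower and 24 did not pass, and the median log2 change was −0.06, against 0.04 over all probe sets tested. The 4 that fell belong to H2AFJ and H2AFV. Of the 29, both knockdown arrays lay above both control arrays for 5 and below them for 12, as did 31.3% and 26.3% of all probe sets tested. As a share of those tested, 17.2% passed in either direction, against 15.5% of all probe sets. By direction, 7.24% of all probe sets tested were higher and 8.3% lower. At an unadjusted p under 0.05 in limma, 4 (13.8%) were higher and 9 (31.0%) lower, against 15.1% and 14.2% of all probe sets tested. The difference between directions was not tested.

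H1FX (H1-10), a linker histone whose gene stands alone, gave 2565 and 2611 in knockdown cells, against 2023 and 2118 in control cells (log2 change 0.32, adjusted p = 0.061), and the genes H1FNT and H1FOO, of the male and female germ line, were absent on every array.

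H2AFJ (H2AJ) encodes H2A.J, a variant that differs from canonical H2A mainly at its tail and is known for accumulating in senescent cells. Its brightest probe set gave 2713 and 2848 in knockdown cells, against 5939 and 6116 in control cells, and fell 2.16-fold (log2 change −1.11, SE 0.10, limma adjusted p = 4.3e-05; chromosome 12, 14818528 to 14819341, plus strand). A second gave 2496 and 2778 in knockdown cells, against 4686 and 5053 in control cells (−0.88, SE 0.11, adjusted p = 0.00031). In both, the groups were far apart relative to their spread. Both carry the suffix _x_at, so neither counts among the probe sets of a single gene. The other 2, which extend further downstream and are dim, gave log2 changes of −0.86 (adjusted p = 0.072) and −0.47 (adjusted p = 0.31), again without overlap. The 15 other probe sets tested within 1000000 bases on each side gave 1 higher and none lower (3 and 0 at an unadjusted p under 0.05 in limma).

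H2AFV (H2AZ2) encodes the second form of H2A.Z, the variant found at promoters. Of 2 probe sets with the same alignment, the brighter gave 2741 and 2689 in knockdown cells, against 5135 and 4436 in control cells (log2 change −0.81, SE 0.11, limma adjusted p = 0.00058; chromosome 7, 44832912 to 44837336, minus strand). The dimmer gave 703 and 714 in knockdown cells, against 1444 and 1209 in control cells (−0.88, SE 0.13, adjusted p = 0.0010). The other 2 probe sets moved less. One, aligned at 44837674 to 44840296, gave 1152 and 1226 in knockdown cells, against 1540 and 1509 in control cells (−0.35, adjusted p = 0.058). The other, which also aligns to chromosome 15, gave 9203 and 10500 in knockdown cells, against 9987 and 11694 in control cells, with overlap (−0.14, adjusted p = 0.49). The genes around H2AFV moved with it: of 54 other probe sets tested within 1000000 bases on each side, 22 were lower and none higher (27 and 0 at an unadjusted p under 0.05 in limma), with a median log2 change of −0.48, and their part in the result was not tested. H2AFZ (H2AZ1), the first form of H2A.Z, had log2 changes of −0.09 and −0.06 in its 2 probe sets, with overlapping groups.

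**Figure D4:**
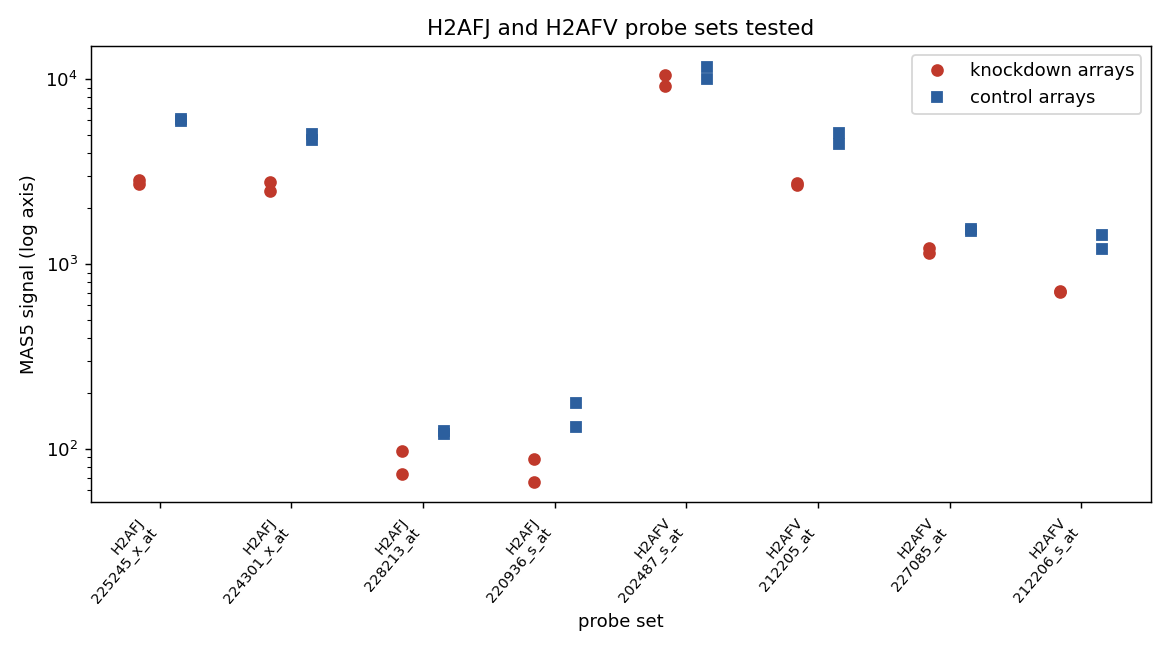
Points are MAS5 signals (y axis, log scale) of the 2 knockdown arrays (red circles) and the 2 control arrays (blue squares) for the tested probe sets of H2AFJ and H2AFV (x axis). Knockdown points lie below the control points for all 4 H2AFJ probe sets and for 3 of the 4 H2AFV probe sets, while the groups overlap for the brightest H2AFV probe set.

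No probe set of H3F3A, H3F3B, H2AFX, H2AFY, H2AFY2 or H2AFZ passed. H3F3A and H3F3B encode the same protein, H3.3, deposited outside replication, and the 4 probe sets they share were the brightest replacement probe sets, with log2 changes of −0.04 to 0.03. For the brightest of them the signals were 31026 and 39271 in knockdown cells, against 35599 and 36201 in control cells. Probe sets of H3F3B (H3-3B) alone gave −0.33, −0.28, −0.17 and 0.05, and in the first 3 both knockdown arrays lay below both control arrays. The brightest of these gave 16822 and 20816 in knockdown cells, against 23380 and 23767 in control cells (limma adjusted p = 0.11, and 0.00089 without knockdown replicate 2), and the next 16130 and 18849 in knockdown cells, against 21001 and 21376 in control cells (adjusted p = 0.14, and 0.0032 without knockdown replicate 2). Their first listed alignment is on chromosome 12, and each has 2.

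H2AFX (H2AX), the variant phosphorylated at DNA breaks, had log2 changes of −0.06 and −0.05 in the 2 tested probe sets aligned to its own strand. One more, aligned to the opposite strand, gave 236 and 218 in knockdown cells, against 126 and 161 in control cells (log2 change 0.61, limma adjusted p = 0.10). H2AFY (MACROH2A1), whose protein carries a large macro domain and is linked to silent chromatin, had probe sets on both sides of 0. Their log2 changes were −0.32 (limma adjusted p = 0.059), −0.12, 0.02 and 0.36 (limma adjusted p = 0.099). All but the third of these separated the groups, and the first and last lie at different parts of the gene. H2AFY2 (MACROH2A2) had a log2 change of 0.14, with overlapping groups. The probe set of the H2AFB genes, expressed in testis, was absent on every array.

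**Figure D5:**
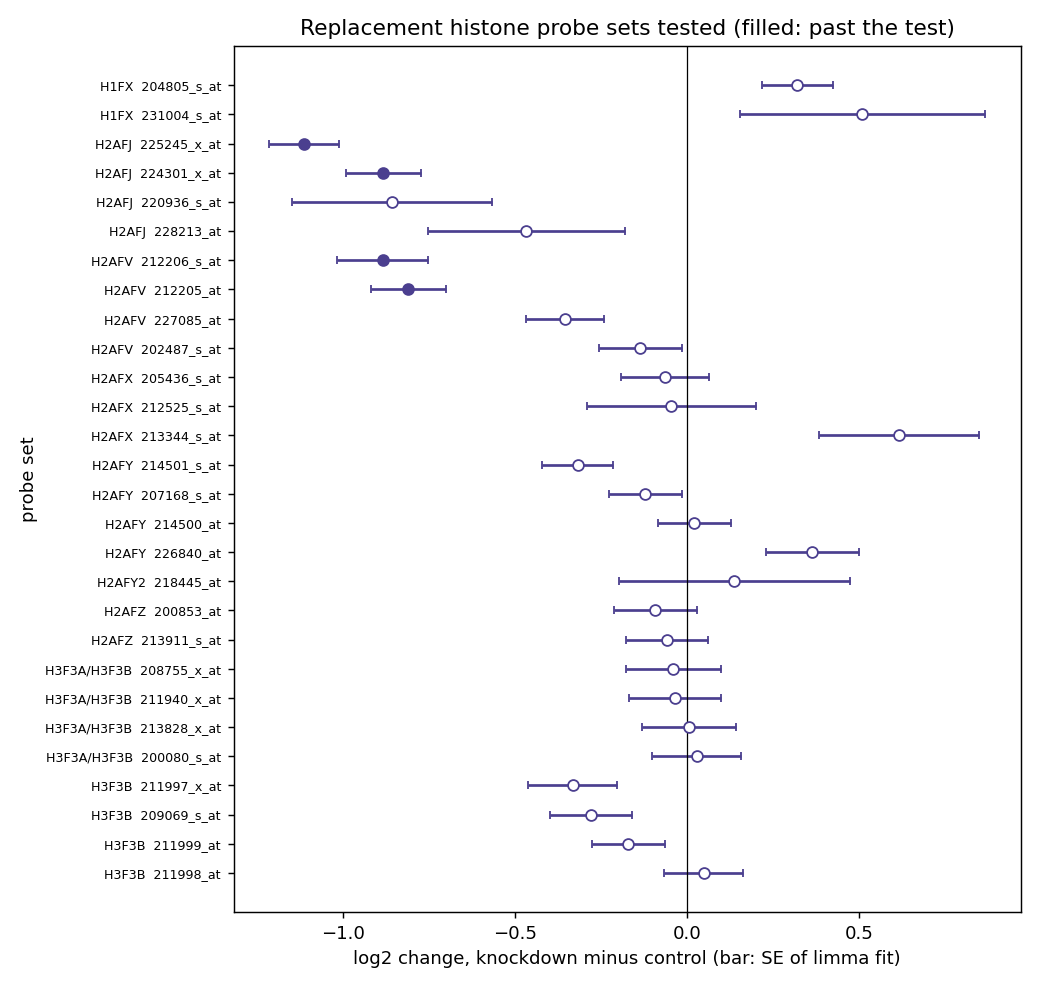
Points are log2 changes, knockdown minus control (x axis), of the replacement probe sets tested (y axis), with bars of 1 SE of the limma fit and filled points for those past the test. The filled H2AFJ and H2AFV probe sets lie between −1.11 and −0.81, and the H3F3A and H3F3B probe sets lie between −0.33 and 0.05.

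Genes that make and process histone messengers were counted through 1 probe set per gene, the brightest. Of 32 such genes 1 was higher, 2 were lower and 29 did not pass, where 8.69% of all 12573 genes tested were higher and 10.5% lower, and the median log2 change was 0.02 (also 0.02 over all genes). The largest change was that of SLBP, the protein that binds the histone stem-loop and is needed to process and translate these messengers. SLBP gave 5700 and 5605 in knockdown cells, against 11506 and 11157 in control cells, and fell 2.0-fold (log2 change −1.0, SE 0.10, limma adjusted p = 9.2e-05). It lay between −1.03 and −0.98 under every other setting tried and passed in all of them. The genes around SLBP on chromosome 4 moved with it: of 48 other probe sets tested within 1000000 bases on each side, 24 were lower and 1 higher, with a median log2 change of −0.70, and their part in the result was not tested.

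NCBP2, a subunit of the complex that binds the messenger's cap, gave 1318 and 1109 in knockdown cells, against 2015 and 1822 in control cells (log2 change −0.66, limma adjusted p = 0.0046, and 0.0503 without control replicate 1). CCNE1, the cyclin that with CDK2 drives entry into S phase and switches on histone transcription through NPAT, gave 464 and 534 in knockdown cells, against 273 and 310 in control cells. It rose by 0.74 (adjusted p = 0.014), with 0.0504 without knockdown replicate 2 and 0.10 without control replicate 1. NPAT itself gave 891 and 944 in knockdown cells, against 1042 and 978 in control cells (−0.14, adjusted p = 0.51).

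Of 37 histone chaperone and deposition genes, 2 were higher, 3 were lower and 32 did not pass, with a median log2 change of −0.04. Over all 12573 genes tested, 8.69% were higher and 10.5% lower, and neither count of the list stood above those shares. DNAJC9, a chaperone of H3 and H4, fell by 0.51 on the log2 scale (limma adjusted p = 0.0061, and 0.10 without control replicate 1), and SUPT16H, a subunit of FACT, fell by 0.49 (0.0069, and 0.067 and 0.091 without control replicate 1 and 2). UBN2, of the complex that deposits H3.3, fell by 0.54 (adjusted p = 0.036, and 0.060 to 0.31 when any 1 array was left out). NAP1L1, a carrier of H2A and H2B, rose by 0.48 (0.015, and 0.26 and 0.18 without control replicate 1 and 2), and RUVBL2, of the complexes that exchange H2A.Z, rose by 0.44 (0.020, and 0.21 and 0.11). These 5 changes were each smaller than those of the histone members that passed.

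DNA replication genes, active in the same phase as the replication-dependent histones, were not raised as a list. Of 51 tested, 3 were higher, 8 were lower and 40 did not pass, with a median log2 change of −0.17. Over all 12573 genes tested, 8.69% were higher and 10.5% lower, with a median log2 change of 0.02. Among those with the largest statistics, SLBP, counted here too, RFC1, which loads the replication clamp, MCM7, of the helicase, and RPA2, which binds single strands, fell, and TYMS, which makes thymidylate, rose. MCM7 gave 4359 and 5785 in knockdown cells, against 10040 and 11107 in control cells (log2 change −1.07, limma adjusted p = 0.00039), and RFC1 gave 969 and 1099 in knockdown cells, against 2112 and 2225 in control cells (−1.06, adjusted p = 0.00015). Neighbouring probe sets were lower around RFC1 as well, 20 of 34 within 1000000 bases, with 2 higher and a median log2 change of −0.66. Around MCM7 the shift was weaker, with 15 of 87 lower, 1 higher, 71 not past the threshold and a median of −0.14. Of all probe sets tested 8.3% were lower, and the part of these neighbours was not tested. TYMS gave 6217 and 7514 in knockdown cells, against 4620 and 3768 in control cells (0.71, adjusted p = 0.0039, and 0.057 without control replicate 2), and RPA2 gave 1265 and 1471 in knockdown cells, against 2127 and 1981 in control cells (−0.58, adjusted p = 0.0069, and 0.070 without control replicate 1). PCNA, the clamp itself, gave 9689 and 11749 in knockdown cells, against 12645 and 12322 in control cells, a log2 change of −0.23 that did not pass (adjusted p = 0.24).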

How the data were processed

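The members and gene lists were chosen with earlier results of these data known. The authors deposited 1 signal intensity per probe set and array, made with MAS5 (no version named) per the submitters' processing notes. The deposited detection p-value and its call (present, marginal or absent) were taken as given, and the deposited log2 columns, centred on the median of each probe set, were read as a check only. Scaling by MAS5 sets each array to one level, so a change in total RNA is not seen. For the probe set alignments, neither a build nor a tool is named in the sources used here.

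Here log2(signal + 16) was compared with limma 3.58.1 in R 4.3.3 (lmFit, eBayes with a mean-variance trend, two-sided, Benjamini-Hochberg over 27307 probe sets, threshold 0.05, 2 residual and 9.04 prior degrees of freedom), after the 62 array controls were left out. The script was tested on simulated data. "At least" marks a fold against a group with no present call. The fold so marked is the measured one and not a lower confidence limit. The number of arrays limits the precision. Same-numbered arrays did not deviate together (correlation −0.03), so no pairing was used.

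Named were members past the threshold, the 6 brightest of each class, further probe sets of those genes, members present on both arrays of 1 group and none of the other, SPINT1 and up to 5 genes per list. Other members, and the neighbour counts outside HIST1 and HIST2, were chosen after their values were seen. Not all members and markers chosen in this way are reported here, and the plots leave out 1 replacement probe set. Current symbols come from RefSeq's gene table. Alternatives changed the pseudocount, filter, scaling, variance model, block and arrays.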

Additional observations from a re-analysis of the deposited data

How the results depend on the processing

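Of the 15 histone probe sets past the threshold, 9 passed under every alternative that tested them, 6 were lost under at least 1 and none changed direction. The 10 replication-dependent calls became 5 with no filter, 2 with the upper quartile as the filter, where 8 of the 10 were not tested, and 3 over probe sets of a single gene, and 6 to 9 with 1 array left out (6 without control replicate 1). Their median log2 change of 0.56 was 0.33 with no filter, −0.18 with the upper quartile, where 5 were left, 0.41 over probe sets of a single gene, and 0.50 to 0.75 with 1 array left out. The 5 replacement calls became 8 with the upper quartile, 10 with quantile normalization (2 higher, 8 lower), 3 over probe sets of a single gene, and 5 to 9 with 1 array left out (9 without knockdown replicate 2), and their median of −0.06 lay between −0.21 and −0.0030. Over all probe sets, the 4244 calls became 2211 with no filter, 1517 without the variance trend, and 2200 to 4751 with 1 array left out (2200 and 2500 without control replicate 1 and 2). Where no count of probe sets left is given, the cause was not tested. The replicate block gave 4365 calls over all probe sets and 10 and 5 among the histones, so it changed neither histone count. With 1 array left out, the lone array was assumed to vary like the other group. Calls moved on the lists of messenger processing (1 to 7 genes), chaperones (0 to 9) and DNA replication (3 to 18), against 3, 5 and 11. The chaperone list had 0 calls in limma, the tool used throughout, without the variance trend (5 at an unadjusted p under 0.05) and without control replicate 1 (3 unadjusted). Dim members limit the reading: 33 replication-dependent probe sets were present on no array.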
